A study of Homo sapiens with 46 samples.

Results

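SR proteins are RNA-binding splicing factors with a tail rich in serine and arginine. 10 of their genes are described here: SRSF1, SRSF2, SRSF3, SRSF4, SRSF5, SRSF6, SRSF7, SRSF10, SRSF11 and TRA2A. They were chosen by symbol in the transcript tables of 4 cell types, which together hold 21166 genes, and all 10 were present in each table. The cells were of the human pluripotent stem cell (hPSC) line H1, either undifferentiated or differentiated in culture to ectoderm, endoderm or mesoderm. hPSC were kept on Matrigel in mTeSR1. Endoderm was made with WNT3A and Activin A, mesoderm with VEGF, BMP4 and bFGF plus Activin A for the first 24 hours, and ectoderm with KOSR, A83-01, PNU-74654 and Dorsomorphin. Differentiated cells were collected after 5 days, and the lysis buffers of all groups contained α-amanitin. RNA was sequenced from cytoplasm, whole nucleus, nucleoplasm, which is what dissolves when nuclei are lysed, and the chromatin pellet. There were 46 libraries in 16 groups of 1 cell type and 1 fraction: 3 per group, but 1 for mesoderm nucleoplasm.

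SR proteins bind exons, help to recruit the splicing machinery, and several of them move between nucleus and cytoplasm with spliced mRNA. Cells are known to control SR genes at the RNA level. Isoforms that keep an intron, or that include a "poison" exon with an early stop codon, often do not encode the full protein, unless the added stretch lies outside the coding part, and are often held in the nucleus or degraded in the cytoplasm. The deposited tables count each isoform separately, so it can be asked which isoforms of these genes were found in the nuclear fractions and which in the cytoplasm. For each library the share of an isoform is its count as a percentage of all counts of its gene.

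The hPSC and ectoderm tables each held 36 isoforms of the 10 genes, that of endoderm held 29 and that of mesoderm 52. Over the 4 tables there were 34 distinct isoforms with an Ensembl transcript ID, of which 33 were found in GENCODE release 29 (23 with the same version) and 14 were in all 4 tables. The others are assembled isoforms with no Ensembl ID, whose exons the tables do not give; they are called unlisted here, and their own codes are printed. Of the 33, GENCODE types 23 as protein coding, 6 as targets of nonsense-mediated decay, 3 as retained introns and 1 as a processed transcript. Against the principal isoform of the gene, 8 of the 33 retain a whole intron, 3 have an extra internal exon and 22 have neither.

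The isoforms on which the results turn differ from the main mRNA by an added stretch (GRCh38, GENCODE 29, all on the strand of the gene). Some also differ at their ends or elsewhere: SRSF1-204 has 4 exons despite its kept intron, as many as SRSF1-201. SRSF2-203 keeps an intron of 995 bases, chr17:76735159-76736153, that lies after the stop codon, in the 3′ UTR, so its coding part is that of SRSF2-202. SRSF7-208 and SRSF7-206 keep an intron of 875 bases, chr2:38748654-38749528, and SRSF7-204 includes an extra exon of 449 bases within it, chr2:38748898-38749346. SRSF1-204 and SRSF1-205 keep an intron of 200 bases, chr17:58005601-58005800. SRSF6-202 includes an extra exon of 268 bases, chr20:43459153-43459420. In the last 3 genes the annotated stop codon lies inside the added sequence. The following lines show this, each from the last 30 bases that both isoforms share up to the stop codon of the longer isoform, in capitals, with the main mRNA over the same number of bases below it.
SRSF7-208, chr2:38749516-38749558, minus strand: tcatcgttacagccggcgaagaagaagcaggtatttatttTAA
SRSF7-201, main mRNA: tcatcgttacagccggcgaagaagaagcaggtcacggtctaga
SRSF7-204, chr2:38749319-38749558, minus strand: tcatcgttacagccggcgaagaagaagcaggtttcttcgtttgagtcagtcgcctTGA
SRSF7-201, main mRNA: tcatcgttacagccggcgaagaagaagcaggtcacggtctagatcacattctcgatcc
SRSF1-204, chr17:58005747-58005830, minus strand: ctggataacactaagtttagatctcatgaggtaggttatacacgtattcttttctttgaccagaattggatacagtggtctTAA
SRSF1-201, main mRNA: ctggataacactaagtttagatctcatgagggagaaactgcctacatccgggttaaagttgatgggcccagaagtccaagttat
SRSF6-202, chr20:43458480-43459304, plus strand: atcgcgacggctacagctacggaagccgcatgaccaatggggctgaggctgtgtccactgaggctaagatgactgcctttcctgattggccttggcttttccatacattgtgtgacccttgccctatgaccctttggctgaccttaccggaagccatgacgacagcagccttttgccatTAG
SRSF6-201, main mRNA: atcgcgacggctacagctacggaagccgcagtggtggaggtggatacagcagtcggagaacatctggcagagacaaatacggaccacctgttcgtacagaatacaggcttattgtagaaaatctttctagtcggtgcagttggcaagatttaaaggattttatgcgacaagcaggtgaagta

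Library totals ran from 4990408 to 21298678 counts. The fractions did not all follow their labels, and each result below is to be read beside this. Of 5 nuclear control RNAs fixed by list, all 5 tested in ectoderm were higher in the library labelled cytoplasm than in the one labelled nucleus, and 0 of 9 cytoplasmic controls were higher there. In hPSC 2 of 4 nuclear controls were higher in cytoplasm and 1 was lower. In endoderm 1 of 4 was higher and 2 were lower, and in mesoderm 0 were higher and 3 of 4 were lower. Of the 9 cytoplasmic controls, 6 were higher and 3 lower in hPSC cytoplasm, 4 and 3 in endoderm, and 9 and 0 in mesoderm. In ectoderm 6 of the 9 were lower. Mitochondrial genes supply 3 of these 9 controls, so this count overlaps with the mitochondrial share given next. Those 3 were the only controls of the list called lower in hPSC and in endoderm. Mitochondrially encoded RNA made 0.399 to 0.615% of counts in hPSC cytoplasm and 13.1 to 15.3% in its nucleus libraries, and lay the same way round in ectoderm and endoderm. In mesoderm it made 5.84 to 7.46% in cytoplasm and 1.11 to 1.36% in nucleus. Mesoderm chromatin replicate 3 stood apart with 5.53%, against 0.769 and 1.12% in the other two. Endoderm nucleus replicate 1 also differed, with 16.1% against 8.09 and 10.5% in replicates 2 and 3. Marker genes followed the labelled cell types in part. All 6 pluripotency markers were in the hPSC table, with a summed level of 2895 to 5075 TPM, but all 6 were in the endoderm table too, at 767 to 3031 TPM. Ectoderm markers were 5 of 6 in the ectoderm table (SOX1 was absent) and 3 of 6 in each other table. Their summed level was 423 to 1065 TPM in ectoderm, 142 to 445 in hPSC, 77.3 to 330 in endoderm and 70.6 to 682 in mesoderm. The hPSC and mesoderm ranges thus overlapped that of ectoderm. Endoderm markers were 7 of 7 in the endoderm table, 0 of 7 in the hPSC and ectoderm tables and 1 of 7 in the mesoderm table. Mesoderm markers were 6 of 9 in the mesoderm table (MESP1, MIXL1 and KDR were absent) at 258 to 453 TPM, and 8 of 9 in the endoderm table at 139 to 367 TPM, which overlap. The part of these markers in the results was not tested. Nothing in the labels says that replicates came from separate cultures, so p-values measure the spread between these libraries.

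SRSF2 (ENSG00000161547, chr17:76734115-76737374) encodes an SR protein that stays in the nucleus. Its isoform with the kept 3′ UTR intron, SRSF2-203, took a small share of SRSF2 counts in cytoplasm and a large one on chromatin. In endoderm SRSF2-203 made 3.28, 3.91 and 3.14% of the gene's counts in the 3 cytoplasm libraries and 21.0, 34.6 and 37.9% in the nucleus libraries. It made 37.2, 31.3 and 33.6% in nucleoplasm and 57.6, 58.4 and 54.0% on chromatin. No chromatin library overlapped any library of another fraction, and the cytoplasm libraries were the lowest. In hPSC the SRSF2-203 share was 4.44, 5.21 and 4.49% in cytoplasm, 22.7, 28.0 and 22.8% in nucleus, 15.2, 16.7 and 12.5% in nucleoplasm and 22.1, 19.9 and 33.7% on chromatin. In mesoderm it was 11.9, 11.1 and 9.36% in cytoplasm, 39.6, 41.6 and 35.6% in nucleus, 15.3% in the single nucleoplasm library, and 47.6, 52.5 and 37.0% on chromatin. The mesoderm nucleoplasm library thus lay nearer to the cytoplasm libraries than to the other nuclear ones. In ectoderm all shares were high: 35.1, 28.8 and 28.6% in cytoplasm, 32.5, 25.3 and 39.8% in nucleus, 55.1, 57.7 and 58.4% in nucleoplasm and 63.1, 65.4 and 63.1% on chromatin. Ectoderm cytoplasm and nucleus overlapped, and its chromatin libraries lay above all others.

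Usage was tested as the log2 change of an isoform minus the change of its gene, with edgeR and Benjamini-Hochberg adjustment over all isoforms of the table. The usage of SRSF2-203 was higher on chromatin than in cytoplasm by 4.04 ± 0.24 (SE; adjusted p = 2.35e-10) in endoderm. It was higher by 2.42 ± 0.19 (adjusted p = 6.69e-08) in hPSC and by 2.08 ± 0.22 (adjusted p = 4.18e-05) in mesoderm, or 2.20 without mesoderm chromatin replicate 3. In ectoderm the rise was 1.05 ± 0.22 (adjusted p = 0.0435), and the call was lost when any 1 of the 6 libraries was left out (adjusted p from 0.093 to 0.20). Between cytoplasm and nucleus, usage was lower in cytoplasm by -3.22 ± 0.23 in endoderm (adjusted p = 1.26e-08), by -2.39 ± 0.19 in hPSC (adjusted p = 1.81e-07) and by -1.86 ± 0.22 in mesoderm (adjusted p = 0.000324). In ectoderm the value was -0.08 and was not called. The main isoform SRSF2-202 moved the other way. In hPSC, endoderm and mesoderm this is no separate result. Only 2 SRSF2 isoforms were counted there, so the share of one fixes that of the other. Its share in endoderm was 96.7, 96.1 and 96.9% in cytoplasm and 42.4, 41.6 and 46.0% on chromatin, a usage change of -1.16 ± 0.20 (adjusted p = 0.00214). SRSF2-203 is the longer isoform and collects more counts per molecule: from mean TPM, which corrects for length, its part of SRSF2 on endoderm chromatin was 44.8%, against 56.7% of counts.

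SRSF7 (ENSG00000115875, chr2:38743599-38751494) encodes an SR protein that also serves as an adaptor for mRNA export. SRSF7-208, with the kept intron and the early stop codon shown above, had the same pattern in the 3 tables that list it. In hPSC its share of SRSF7 counts was 5.20, 3.13 and 3.75% in cytoplasm, 16.3, 21.8 and 15.2% in nucleus, 13.7, 17.6 and 12.9% in nucleoplasm and 23.1, 22.8 and 35.2% on chromatin. In ectoderm it was 15.9, 13.9 and 17.8% in cytoplasm, 14.9, 9.10 and 21.8% in nucleus, 44.4, 44.9 and 46.9% in nucleoplasm and 55.2, 56.5 and 53.9% on chromatin. In mesoderm it was 8.42, 9.45 and 11.2% in cytoplasm, 37.5, 35.8 and 30.9% in nucleus, 17.5% in nucleoplasm and 38.1, 40.5 and 27.4% on chromatin. Chromatin and cytoplasm libraries did not overlap in any of the 3 cell types, while nucleus and cytoplasm overlapped in ectoderm. Usage was higher on chromatin than in cytoplasm by 2.68 ± 0.25 in hPSC (adjusted p = 2.09e-09), 1.79 ± 0.21 in ectoderm (adjusted p = 0.00298) and 1.87 ± 0.32 in mesoderm (adjusted p = 0.000826, or 2.01 without chromatin replicate 3). Against the nucleus libraries, cytoplasm usage was lower, at -2.10 ± 0.24 in hPSC (adjusted p = 4.76e-07) and -1.85 ± 0.32 in mesoderm (adjusted p = 0.00213). Each of these SRSF7-208 calls was kept under every alternative run. The endoderm table does not list SRSF7-208, so reads of that intron there had no isoform of this structure to be assigned to.

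The coding isoform SRSF7-201 had the opposite distribution in mesoderm and ectoderm. In mesoderm its mean share was 63.6 ± 4.09% (SD, n = 3) in cytoplasm and 22.5 ± 7.55% on chromatin, a usage change of -1.49 ± 0.29 (adjusted p = 0.00347). In ectoderm it went from 42.9 ± 3.96% to 15.6 ± 4.14% (-1.46 ± 0.21, adjusted p = 0.0271), a call lost with any 1 library left out. The poison-exon isoform SRSF7-204 did not pass the test. It made 8.88, 5.89 and 6.88% in ectoderm cytoplasm and 13.5, 11.5 and 7.98% on chromatin, which overlap, and its usage differed by 0.61 there and by -0.05 in mesoderm. The unlisted SRSF7 isoform MES.1887.6 in mesoderm went with the intron-retaining one: 3.87, 2.60 and 4.07% in cytoplasm, 16.9, 13.8 and 16.4% in nucleus and 21.5, 23.1 and 16.2% on chromatin. Its usage was higher on chromatin by 2.53 ± 0.42 (adjusted p = 0.00053).

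**Figure D1:**
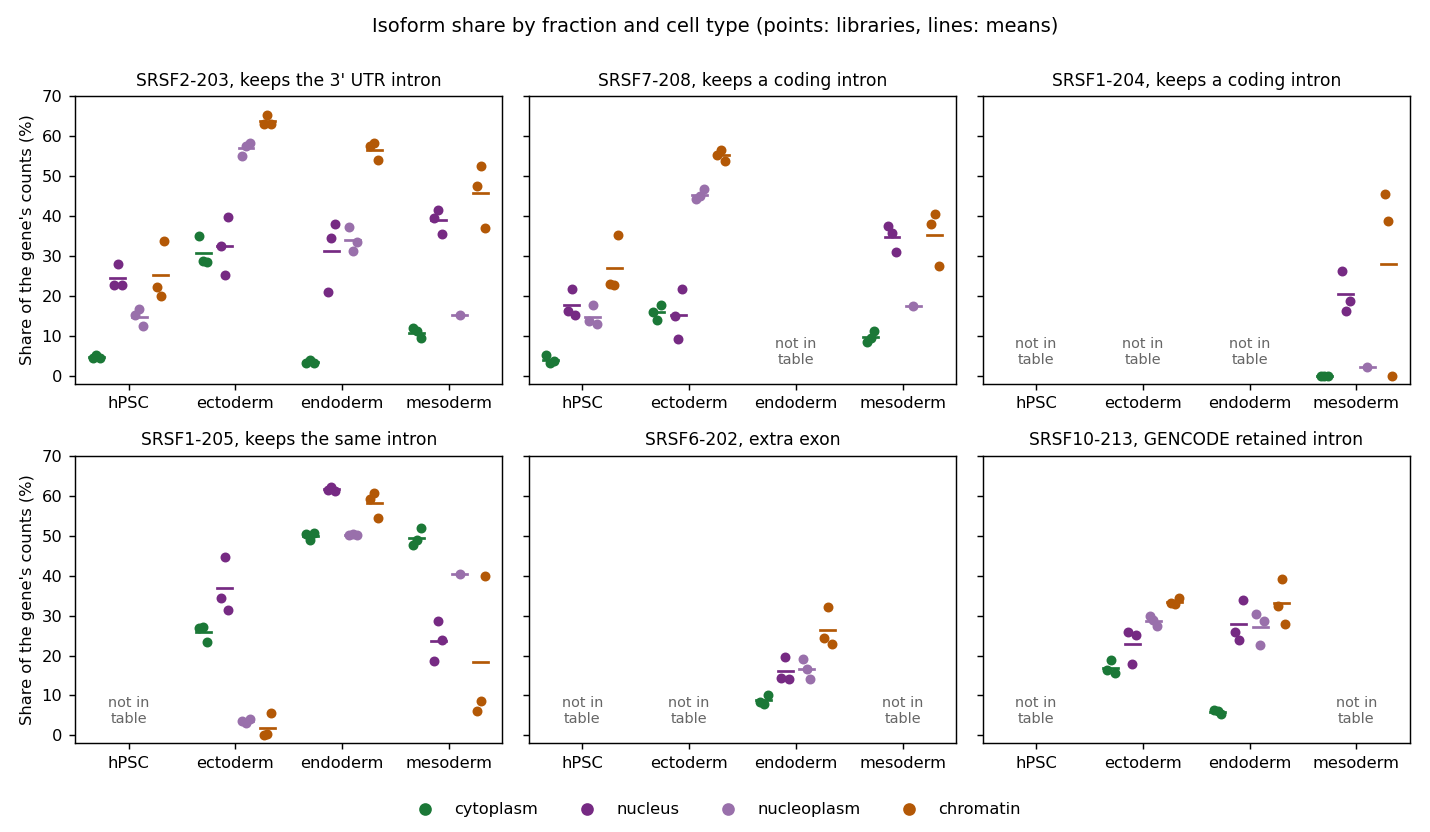
Share of 6 isoforms in the counts of their gene (y axis, percent; 1 point per library) by fraction and cell type (x axis). By their means, SRSF2-203 and SRSF7-208 lie highest on chromatin (overlapping nucleus in hPSC and mesoderm) and lowest in cytoplasm, except that ectoderm nucleus lies at the level of ectoderm cytoplasm, and SRSF1-205 falls on ectoderm chromatin.

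SRSF6 (ENSG00000124193, chr20:43457928-43464247) showed the pattern for a poison exon. SRSF6-202, the isoform with the extra exon and early stop codon, is listed in the endoderm table alone, and made 8.33, 7.91 and 10.0% of SRSF6 counts in cytoplasm. It made 14.4, 19.7 and 14.2% in nucleus, 19.1, 16.5 and 14.1% in nucleoplasm and 24.3, 32.3 and 22.8% on chromatin, where no library overlapped another fraction. Its usage was higher on chromatin than in cytoplasm by 1.61 ± 0.37 (adjusted p = 0.00652), a call kept under every alternative run. As a transcript it was higher on chromatin than in nucleoplasm, 96.0 against 34.0 CPM (counts per 1000000 after TMM scaling, the normalisation of library sizes in edgeR; log2 1.50 ± 0.37, adjusted p = 0.0117), though without nucleoplasm replicate 3 the value was 1.37 (adjusted p = 0.053). In mesoderm the unlisted SRSF6 isoform MES.16281.2 made 40.6, 34.9 and 35.8% in cytoplasm and 60.7, 63.7 and 57.8% on chromatin, groups that did not overlap but whose usage change was not called. In hPSC the unlisted ESC.15533.2 made 5.30, 5.73 and 8.69% in cytoplasm and 12.8, 13.4 and 15.4% on chromatin, again without a call for usage.

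SRSF1 (ENSG00000136450, chr17:58003360-58007346), the founding member of the family, did not follow this pattern. The hPSC table holds the main mRNA SRSF1-201 alone. In ectoderm the intron-retaining SRSF1-205 made 26.8, 27.2 and 23.4% in cytoplasm, 34.3, 44.7 and 31.4% in nucleus, 3.48, 3.17 and 4.09% in nucleoplasm and 0, 0.270 and 5.51% on chromatin. By its mean it was thus lowest on chromatin, though chromatin replicate 3 lay above all nucleoplasm libraries. Usage on chromatin was lower than in cytoplasm by -3.87 ± 0.77 (adjusted p = 0.00306), a call kept under every alternative run. SRSF1-201 rose in the same libraries from 38.8, 31.3 and 32.4% in cytoplasm to 77.5, 67.4 and 70.2% on chromatin. In endoderm SRSF1-205 made 50.4, 48.9 and 50.6% in cytoplasm, 61.4, 62.2 and 61.2% in nucleus and 59.2, 60.7 and 54.4% on chromatin, a usage difference of 0.22 that was not called.

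In mesoderm 2 SRSF1 isoforms keep this same intron, and they split in opposite directions. SRSF1-204 had 0 counts in all 3 cytoplasm libraries, made 26.2, 16.2 and 18.8% in nucleus, 2.29% in nucleoplasm, and 45.5, 38.7 and 0% on chromatin. Since 0 counts cannot exclude a level of 3 counts per library, the fold is a bound: SRSF1-204 was at least 264-fold lower in cytoplasm than in nucleus. The usage call held with edgeR (adjusted p = 0.000611) but not with limma's diffSplice (adjusted p = 0.13). SRSF1-205 made 47.6, 48.9 and 51.8% in cytoplasm, 18.6, 28.6 and 23.9% in nucleus, 40.4% in nucleoplasm and 6.20, 8.68 and 40.0% on chromatin. Together both made 49.4 ± 2.18% (SD, n = 3) in cytoplasm, 44.1 ± 1.20% in nucleus and 46.4 ± 5.92% on chromatin. The isoforms overlap over the intron, and how the counting divided reads between them was not tested. Chromatin replicate 3, the library that stood apart, was the one with no SRSF1-204.

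SRSF5 (ENSG00000100650, chr14:69726900-69772005), an SR gene induced by many stimuli, had isoform shares that varied strongly between replicates. Its gene-sum difference of 1.59 on endoderm chromatin against nucleoplasm was the largest tested among the 10 genes. The fraction pairs tested on gene sums were cytoplasm against nucleus and chromatin against nucleoplasm. SRSF5-207 keeps 2 introns, of 285 and 1215 bases (chr14:69768897-69769181 and chr14:69769252-69770466), and SRSF5-212 keeps the second. In endoderm SRSF5-207 made 1.55, 2.55 and 1.36% in cytoplasm, 7.28, 9.16 and 5.57% in nucleus and 9.24, 6.53 and 8.16% on chromatin. No cytoplasm library reached the nuclear ones, but the usage difference of 2.12 was not called. In hPSC it made 4.04, 2.96 and 4.01% in cytoplasm and 9.62, 9.56 and 13.5% on chromatin (1.59, not called). In mesoderm SRSF5-212 had 0 counts in each cytoplasm library and made 6.55, 8.72 and 6.99% in nucleus, 0% in nucleoplasm and 3.05, 10.6 and 0% on chromatin. It was at least 131-fold lower in cytoplasm than in nucleus against the limit of 3 counts per library. That usage call (adjusted p = 0.0119) was lost with diffSplice (adjusted p = 0.12) and without nucleus replicate 3, cytoplasm replicate 1 or cytoplasm replicate 3.

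The coding isoform SRSF5-217 was cytoplasmic in endoderm, with 53.9, 46.6 and 53.5% there and 7.05, 1.96 and 3.18% on chromatin (-3.64 ± 1.04, adjusted p = 0.0101). The call was lost without chromatin replicate 2 or 3 (adjusted p = 0.071 and 0.065). In ectoderm SRSF5-217 made 31.7, 35.9 and 39.6% in cytoplasm and 13.8, 16.8 and 15.0% on chromatin (-1.22 ± 0.29, adjusted p = 0.00822), a call lost without chromatin replicate 1 or 3 (adjusted p = 0.084 and 0.057). In endoderm the unlisted END.9807.3 took its place, with 0.287, 12.2 and 10.6% in cytoplasm, 66.9, 40.6 and 60.8% in nucleus and 49.9, 60.3 and 64.0% on chromatin. Its usage was higher on chromatin by 2.91 ± 0.84 (adjusted p = 0.012), or 2.34 (adjusted p = 0.12) without cytoplasm replicate 1. Replicates of 1 group could differ widely: the unlisted ESC.11019.4 made 28.0, 8.20 and 11.5% of SRSF5 in the 3 hPSC nucleus libraries.

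SRSF10 (ENSG00000188529, chr1:23964804-23980927) encodes an SR protein that acts as a splicing repressor once dephosphorylated. SRSF10-213 is typed by GENCODE as a retained intron; it starts within an intron and holds no whole intron of the principal isoform. In endoderm it made 6.34, 5.98 and 5.37% in cytoplasm, 25.8, 23.8 and 33.9% in nucleus, 30.4, 22.6 and 28.6% in nucleoplasm and 32.3, 39.3 and 27.9% on chromatin. The cytoplasm libraries lay far below the 9 others. Usage was higher on chromatin than in cytoplasm by 2.50 ± 0.49 (adjusted p = 0.000713) and lower in cytoplasm than in nucleus by -2.26 ± 0.49 (adjusted p = 0.00433). In ectoderm it made 16.3, 18.8 and 15.6% in cytoplasm and 33.0, 32.8 and 34.5% on chromatin, without overlap, but the usage difference of 0.99 was not called by edgeR (adjusted p = 0.205), though limma's diffSplice called it (1.34, adjusted p = 2.16e-05).

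SRSF11 (ENSG00000116754, chr1:70205682-70253052) encodes an SR protein of the larger, more divergent kind. Its isoform with a kept intron of 317 bases (chr1:70250048-70250364), SRSF11-206, went the other way in hPSC: 21.6, 17.1 and 11.6% in cytoplasm, 10.3, 8.72 and 6.16% in nucleus and 8.55, 6.07 and 8.41% on chromatin. Its usage difference of -1.18 was not called (adjusted p = 0.542). The nuclear isoform there was the unlisted ESC.730.8, with 10.7, 6.30 and 6.18% in cytoplasm, 33.3, 32.7 and 26.9% in nucleus and 29.2, 26.3 and 31.1% on chromatin. Usage of ESC.730.8 was higher on chromatin than in cytoplasm by 1.85 ± 0.49 (adjusted p = 0.0158), a call lost without cytoplasm replicate 2 or 3 (adjusted p = 0.12 and 0.10). In mesoderm the unlisted MES.692.4 made 8.70, 3.23 and 0% in cytoplasm and 22.3, 26.9 and 27.4% on chromatin (2.63 ± 0.82, adjusted p = 0.0338), lost without cytoplasm replicate 2 or 3 (adjusted p = 0.17 in both). Usage of the coding isoform SRSF11-202 was called higher in hPSC cytoplasm than in nucleus. That of the coding isoform SRSF11-203 was called lower on ectoderm chromatin than in cytoplasm. In endoderm SRSF11-201 made 84.6, 82.1 and 74.5% of the counts in cytoplasm and 94.6, 84.4 and 93.6% on chromatin, so 1 isoform held the gene in both.

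TRA2A (ENSG00000164548, chr7:23504780-23532041) encodes one of the transformer-2 proteins, sequence-specific splicing activators. In hPSC TRA2A-201 made 96.6, 96.3 and 96.5% of its counts in cytoplasm and 97.8, 94.0 and 96.7% on chromatin. In ectoderm TRA2A-201 made 43.7, 51.0 and 51.8% in cytoplasm, 43.4, 72.3 and 35.3% in nucleus, 21.0, 27.1 and 25.2% in nucleoplasm and 13.8, 16.4 and 14.1% on chromatin, and the unlisted ECT.9556.2 made up the rest. Usage of TRA2A-201 was lower on chromatin than in cytoplasm by -1.71 ± 0.40 (adjusted p = 0.0211). That call was lost without cytoplasm replicate 2 or 3 or any 1 chromatin library (adjusted p from 0.081 to 0.13). TRA2A-212, with an extra exon of 90 bases (chr7:23531181-23531270), made 2.23, 5.99 and 3.26% on hPSC chromatin, a usage difference of 0.13 from cytoplasm that was not called.

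SRSF3 (ENSG00000112081, chr6:36594353-36605600) and SRSF4 (ENSG00000116350, chr1:29147743-29181987) were almost single-isoform genes here. SRSF3-202, which encodes the smallest SR protein, was the only SRSF3 isoform in 3 tables, and SRSF4-201 the only SRSF4 isoform in 3. In hPSC a separately assembled unlisted locus named SRSF4, ESC.377.1, made 2.03, 2.51 and 2.86% of SRSF4 in cytoplasm, 7.76, 9.61 and 9.38% in nucleus, 16.2, 16.5 and 12.0% in nucleoplasm and 16.6, 17.0 and 16.0% on chromatin. Its cytoplasm libraries were the lowest, and usage was higher on chromatin by 2.73 ± 0.24 (adjusted p = 0.00142), a call kept under every alternative run. The known poison exon of SRSF3 is in none of the listed isoforms of these tables, so no statement on it can be made.

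Counted over the family, usage between chromatin and cytoplasm was called for 4 of 32 isoforms tested in hPSC (4 higher on chromatin, 0 lower), where 3.58% of all isoforms tested were called, 2.38% higher and 1.2% lower. In ectoderm 8 of 33 were called (2 higher, 6 lower; 2.91% of all, 1.4% higher and 1.51% lower), in endoderm 7 of 27 (5 higher, 2 lower; 12.4% of all, 7.66% higher and 4.75% lower) and in mesoderm 8 of 50 (7 higher, 1 lower; 8.12% of all, 6.44% higher and 1.68% lower). The ectoderm count depended on the libraries: it was 2 to 5 with any 1 of the 6 libraries left out. The mesoderm count was 5 without cytoplasm replicate 3. Between cytoplasm and nucleus, 4 of 32 isoforms were called in hPSC (1 higher in cytoplasm, 3 lower; 2.63% of all, 0.935% higher and 1.69% lower), or 2 without nucleus replicate 1, nucleus replicate 2 or cytoplasm replicate 2. In endoderm 4 of 27 were called, all lower in cytoplasm (4.57% of all, 3.66% lower), and in mesoderm 5 of 50, all lower (2.8% of all, 2.27% lower). In ectoderm edgeR called 0 of 33, with 0 at an unadjusted p under 0.05 and 0 called by limma's diffSplice, where edgeR called 0.353% of all isoforms.

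Split by structure, usage on chromatin was above that in cytoplasm for 16 of 20 tests of intron-retaining isoforms over the 4 cell types (9 called higher, 1 lower), with a median log2 of 1.45. For isoforms with an extra internal exon it was above for 3 of 4 (1 called higher; median 0.37). For those with neither it was above for 14 of 58 (1 called higher, 8 lower; median -0.44), and for unlisted isoforms for 35 of 59 (7 called higher, 0 lower; median 0.71). The median over all isoforms of a table lay between 0.00 and 0.06. No counts by structure are given for all isoforms, whose shares called are listed by cell type above. Among the 9 tests of intron-retaining isoforms called higher were SRSF1-204 and SRSF5-212 in mesoderm, which limma's diffSplice did not call. SRSF1-204 keeps the same intron as SRSF1-205, and by its mean their summed share was not higher on mesoderm chromatin than in cytoplasm. Many isoforms recur in several cell types and isoforms of a gene share its counts, so these tests are not independent. The 4 tests of intron-retaining isoforms that were not above 0 were SRSF1-205 in ectoderm and mesoderm, SRSF11-206 in hPSC and SRSF5-212 in endoderm, and SRSF1-205 in ectoderm was the 1 called.

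**Figure D2:**
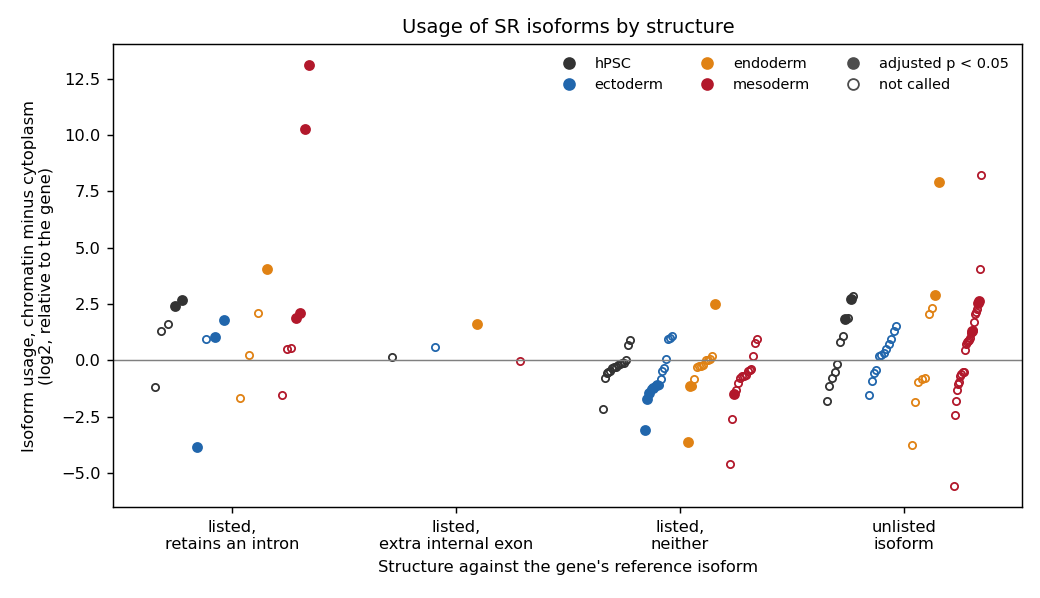
Usage change of each isoform of the 10 genes on chromatin against cytoplasm (log2, y axis) by structure class (x axis), coloured by cell type. Filled points passed the test. Intron-retaining isoforms lie mostly above 0 (16 of 20), those with neither feature mostly below (14 of 58 above 0).

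As gene sums, most of the family was higher in cytoplasm than in nucleus in hPSC, ectoderm and endoderm but not in mesoderm. In hPSC 6 of 10 were higher and 0 lower (65.7% of all genes were called, 35.6% higher and 30.1% lower). In ectoderm 7 of 10 were higher and 0 lower (53.5% of all, 28.8% and 24.8%). Endoderm had 6 higher and 2 lower (69.9% of all, 34.4% and 35.6%), or 8 and 0 by total counts. Mesoderm had 1 and 4 (63.4% of all, 32.1% and 31.2%), or 0 and 9 on TPM. The share called is near that of all genes only when both directions are summed; by direction, more of the 10 were higher and fewer lower than of all genes in hPSC, ectoderm and endoderm, and fewer higher in mesoderm. The median log2 of the 10 was 0.56, 0.49, 0.68 and -0.25 in that order, beside 0.11, 0.03, 0.01 and 0.00 over all genes. SRSF3 was higher in cytoplasm in 3 cell types. Its CPM was 966, 910 and 829 in hPSC cytoplasm and 465, 332 and 394 in nucleus (log2 1.18 ± 0.20, adjusted p = 0.000138). In endoderm SRSF3 stood at 401, 476 and 469 against 139, 170 and 158 (1.53 ± 0.13, adjusted p = 1.12e-07). In mesoderm it stood at 356, 370 and 396 against 135, 200 and 155 (1.20 ± 0.30, adjusted p = 0.00462), but on TPM the mesoderm difference was 0.07 and not called. The CPM groups did not overlap in any of these. In ectoderm the difference of 0.20 was not called, but it was 0.55 and called by total counts, 0.48 and called on TPM, and 0.37 and called without nucleus replicate 2.

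SRSF7 was higher in cytoplasm in hPSC at 868, 651 and 616 CPM against 341, 292 and 289 (1.21 ± 0.14, adjusted p = 7.32e-06), and also in ectoderm (0.59) and endoderm (1.16). The other genes called higher in cytoplasm were SRSF1 (0.55) and SRSF2 (0.56) in hPSC, which on TPM were 0.14 and 0.26 and not called, SRSF5 (0.52), SRSF6 (0.47) and SRSF2 (0.45) in ectoderm, and SRSF1 (0.77) and SRSF4 (0.51) in endoderm. SRSF10 was higher in the same 3 cell types as SRSF7, by 0.91, 1.15 and 1.19, and TRA2A by 0.99, 1.22 and 1.47. TRA2A in endoderm cytoplasm stood at 53.8, 58.5 and 54.8 CPM against 8.89, 28.6 and 22.5 in nucleus. SRSF10 stood at 113, 145 and 103 CPM against 19.7, 70.6 and 68.1 there. For both genes nucleus replicate 1, which differed from the other nucleus libraries, was far the lowest. With 1 library left out the endoderm differences ranged from 1.13 to 1.83 for TRA2A and from 0.80 to 1.47 for SRSF10. In mesoderm 4 genes were lower in cytoplasm. SRSF11 stood at 218, 218 and 200 CPM in mesoderm cytoplasm and 448, 457 and 424 in nucleus (-1.06 ± 0.17, adjusted p = 0.000217), but at 287, 226 and 260 against 125, 61.4 and 111 in ectoderm (1.39 ± 0.21, adjusted p = 0.00011). SRSF6 (-0.61) and TRA2A (-0.40) were also lower in mesoderm cytoplasm, and so was SRSF5 (-0.71), a call lost without nucleus replicate 1 or 2 or cytoplasm replicate 1 or 2 (adjusted p from 0.058 to 0.11). In endoderm SRSF5 stood at 145, 155 and 144 CPM in cytoplasm and 192, 481 and 392 in nucleus (-1.26 ± 0.24, adjusted p = 0.000263). That fall was -0.63 and not called when libraries were scaled by total counts. The fall of SRSF6 in endoderm (-0.71 ± 0.25, adjusted p = 0.0184) rested on overlapping libraries and was -0.08 by total counts. SRSF2 in endoderm was -0.11 and not called, but 0.58 and called by total counts, so its direction depends on the scaling.

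**Figure D3:**
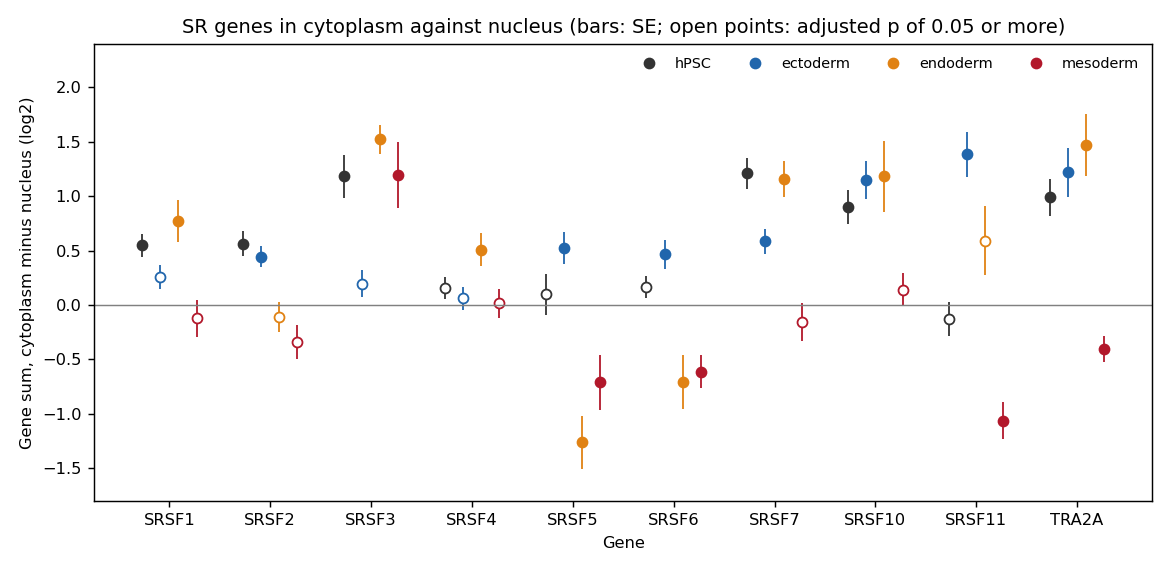
Log2 difference of gene sums, cytoplasm minus nucleus (y axis; bars are ± 1 SE), for the 10 genes (x axis) in each cell type; open points did not pass the test. SRSF3 lies above 0 in hPSC, endoderm and mesoderm, and SRSF11 lies above 0 in ectoderm and below it in mesoderm.

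Chromatin was compared with nucleoplasm in the 3 cell types that have replicates of both. In endoderm SRSF5 stood at 829, 810 and 804 CPM on chromatin and 298, 255 and 259 in nucleoplasm (1.59 ± 0.24, adjusted p = 6e-05), and SRSF6 at 393, 428 and 411 against 218, 192 and 201 (1.01 ± 0.25, adjusted p = 0.00285). Neither pair of groups overlapped. SRSF2 (0.62 ± 0.14, adjusted p = 0.00147) and SRSF11 (0.83 ± 0.32, adjusted p = 0.0384) were also higher; the SRSF11 call was lost with each library left out. In endoderm 5 of 10 genes were called, 4 higher and 1 lower (7 and 0 by total counts), where 53.7% of all genes were called, 23% higher and 30.7% lower. The 1 lower was SRSF3 (-0.55 ± 0.13, adjusted p = 0.00253), which turned to 0.07 by total counts. In hPSC 4 of 10 were called, all lower on chromatin (30.7% of all genes, 17.2% higher and 13.6% lower): SRSF1 (-0.36), SRSF3 (-0.73), SRSF7 (-0.48) and TRA2A (-0.65). This count fell to 2 without nucleoplasm replicate 3 or chromatin replicate 3. On TPM 5 genes were called higher and 0 lower, and SRSF1 and SRSF7 turned to 0.21 and 0.02, so the direction rests on the scaling. In ectoderm 1 of 10 was called (43.3% of all genes, 21.6% higher and 21.8% lower), SRSF6 at 248, 287 and 246 CPM on chromatin against 174, 170 and 162 (0.62 ± 0.13, adjusted p = 0.00203).

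As single transcripts rather than shares, 18 of 34 isoforms were called between cytoplasm and nucleus in hPSC (12 higher in cytoplasm, 6 lower; 39.7% of all transcripts, 19.6% higher and 20% lower). In ectoderm 9 of 35 were called (9 higher, 0 lower; 13.7% of all, 7.03% higher and 6.62% lower), in endoderm 17 of 29 (12 higher, 5 lower; 42.1% of all, 19.3% higher and 22.9% lower) and in mesoderm 17 of 52 (7 higher, 10 lower; 32% of all, 15.3% higher and 16.8% lower). The coding isoforms SRSF7-201 and SRSF7-202 were higher in hPSC cytoplasm by 1.42 ± 0.19 and 1.57 ± 0.16 (adjusted p = 0.000265 and 4.2e-05). SRSF10-204 was higher there too, at 57.3 against 21.0 CPM (1.45 ± 0.17, adjusted p = 0.000117). SRSF2-203 was lower, at 22.0 against 76.1 CPM in hPSC (-1.79 ± 0.20, adjusted p = 8.35e-05) and 11.1 against 94.4 in endoderm (-3.09 ± 0.29, adjusted p = 1.4e-05). SRSF5-207 was lower in endoderm cytoplasm, at 2.97 against 24.7 CPM (-3.06 ± 0.43, adjusted p = 0.000213). Between chromatin and nucleoplasm, 5 of 34 were called in hPSC (2 higher, 3 lower; 9.75% of all, 6.08% higher and 3.67% lower), 6 of 35 in ectoderm (0 higher, 6 lower; 13.9% of all, 4.51% higher and 9.37% lower) and 4 of 29 in endoderm (3 higher, 1 lower; 29.9% of all, 11.8% higher and 18.1% lower). On TPM the splits were 10 and 0, 15 and 0, and 13 and 0. SRSF2-203 was among the higher ones in hPSC (0.80 ± 0.20, adjusted p = 0.0325) and endoderm (1.17 ± 0.27, adjusted p = 0.00787).

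The cell types also differed in the level of these genes, compared on gene sums in cytoplasm. These 3 comparisons share the hPSC libraries, each cell type was counted on its own assembly, and in bulk RNA fewer cells of a type and less RNA per cell cannot be told apart. SRSF7 stood at 932, 725 and 690 CPM in hPSC on the common scale, at 107, 100 and 121 in ectoderm, at 252, 347 and 374 in endoderm and at 174, 179 and 189 in mesoderm. The hPSC libraries were the highest and the ectoderm libraries the lowest, with no overlap. The difference from hPSC was -2.84 ± 0.16 in ectoderm (adjusted p = 4.81e-10), -1.27 ± 0.15 in endoderm and -2.11 ± 0.15 in mesoderm, each called. SRSF3 stood at 1036, 1015 and 930 CPM in hPSC, 192, 180 and 178 in ectoderm, 527, 624 and 628 in endoderm and 363, 372 and 395 in mesoderm. SRSF2 stood at 558, 509 and 508 in hPSC, 115, 109 and 114 in ectoderm, 369, 394 and 401 in endoderm and 249, 249 and 245 in mesoderm. SRSF3, SRSF2 and SRSF7 thus had the same order: hPSC, endoderm, mesoderm, ectoderm. By their means SRSF1, SRSF6 and SRSF10 had this order too, but with libraries that overlapped between some neighbouring cell types.

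In ectoderm 4 genes were higher than in hPSC: SRSF4, TRA2A, SRSF11 and SRSF5. SRSF4 stood at 117, 119 and 120 CPM in hPSC and 180, 181 and 213 in ectoderm, 0.69 ± 0.09 higher. TRA2A stood at 101, 100 and 111 in hPSC, 166, 137 and 137 in ectoderm (0.49 ± 0.10 higher), 70.7, 76.6 and 73.4 in endoderm and 86.1, 84.4 and 80.3 in mesoderm. SRSF11 was higher in ectoderm too, at 310, 244 and 274 against 192, 163 and 167 (0.67 ± 0.11). SRSF5 stood at 381, 336 and 382 CPM in ectoderm and 359, 234 and 239 in hPSC, groups that overlap (0.40 ± 0.14, adjusted p = 0.0178), and the call was lost without hPSC cytoplasm replicate 2 or 3 or ectoderm cytoplasm replicate 1 or 3 (adjusted p from 0.052 to 0.089). In ectoderm 10 of 10 genes were called (4 higher, 6 lower), where 76% of all genes were called, 38% higher and 37.9% lower. In endoderm 8 of 10 were called (1 higher, 7 lower; 58.1% of all, 29.5% higher and 28.6% lower) and in mesoderm 8 of 10 (1 higher, 7 lower; 68.1% of all, 34.6% higher and 33.4% lower). The median log2 of the 10 was -0.97, -0.50 and -0.57, beside 0.01, 0.00 and 0.00 over all genes. The 1 higher gene was SRSF4 in endoderm (0.25, lost without hPSC cytoplasm replicate 1 or 2 or endoderm cytoplasm replicate 1) and SRSF11 in mesoderm (0.30, lost without hPSC cytoplasm replicate 2 or 3 or mesoderm cytoplasm replicate 1 or 2). SRSF5 did not differ beyond the threshold between mesoderm and hPSC (-0.01), nor SRSF1 between endoderm and hPSC (-0.02).

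**Figure D4:**
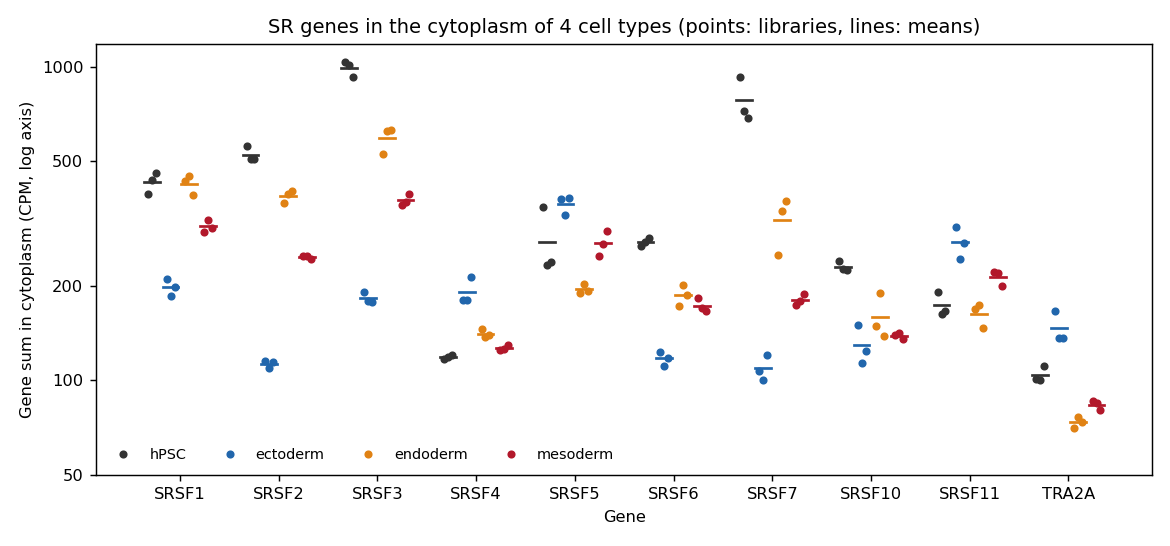
CPM of the 10 gene sums in cytoplasm on the common scale (y axis, log scale) by cell type; points are libraries and bars are means. SRSF2, SRSF3 and SRSF7 are highest in hPSC and lowest in ectoderm, and SRSF4 is highest in ectoderm.

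Between genes, levels can be set side by side only per length, in TPM. In hPSC cytoplasm SRSF7 was the highest of the 10 at 506 ± 15.5 TPM (SD, n = 3), followed by SRSF2 at 272 ± 25.9 and SRSF3 at 217, which overlapped SRSF5 at 176; SRSF4 was last at 48.9. In ectoderm cytoplasm SRSF5 was first at 213 ± 48.5 TPM, and each of the other 9 overlapped its neighbours in the order. In endoderm cytoplasm SRSF7 (247) and SRSF2 (244) led and overlapped, and SRSF10 was last at 38.4. In mesoderm cytoplasm SRSF5 led at 184 ± 3.13 TPM and SRSF6 was last at 40.6. On chromatin SRSF5 was first in ectoderm (743 ± 35.7), endoderm (679 ± 60.8) and mesoderm (598 ± 235), overlapping SRSF2 in mesoderm. SRSF3 was the last of the 10 on chromatin in those 3 cell types, at 63.7, 54.8 and 83.9 TPM, overlapping TRA2A in endoderm and SRSF10 in mesoderm, although it ranked 3 in endoderm cytoplasm and 4 in mesoderm cytoplasm.

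Beside the 10, a list of 39 further genes of the pathway was counted: 4 other SR genes, 9 kinases that phosphorylate SR proteins, an import receptor with a phosphatase, and 24 SR-related or nuclear speckle proteins. Between cytoplasm and nucleus 18 were higher and 7 lower of 37 tested in hPSC, 24 and 4 of 38 in ectoderm, 16 and 11 of 36 in endoderm and 7 and 19 of 38 in mesoderm. Of all genes, 35.6% were higher and 30.1% lower in hPSC, 28.8% and 24.8% in ectoderm, 34.4% and 35.6% in endoderm, and 32.1% and 31.2% in mesoderm; these shares are also the background of the groups that follow. The other SR genes (SRSF8, SRSF9, SRSF12 and TRA2B) were higher in cytoplasm for 4 of 4 in hPSC, endoderm and mesoderm, and for 2 of 4 in ectoderm. TRA2B, the partner of TRA2A, was higher by 1.32 in hPSC, and SRSF9 by 1.26 there and 1.84 in mesoderm. The speckle group split in hPSC (8 higher, 6 lower of 24) and was mostly lower in mesoderm cytoplasm (2 higher, 16 lower). SRRM2 and SON, the scaffold proteins of nuclear speckles, were lower in hPSC cytoplasm by -1.29 and -0.96, and SON by -1.78 in mesoderm. In ectoderm 17 of 24 speckle genes were higher in cytoplasm, as the 5 nuclear control RNAs were. Among the kinases, CLK2 was higher on chromatin than in nucleoplasm in hPSC (1.24), ectoderm (1.25) and endoderm (2.10).

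Across the 16 groups, the genes with the most similar pattern to each member were found by Pearson's r of mean log2 CPM. They were sought among 9325 genes present in all tables with a minimum mean of 10 CPM. This describes groups that share a library scale and carries no p. SRSF3 was most like TRA2B (0.977) and PNO1 (0.972). TIA1 (0.961) was among the genes closest to SRSF11, and TRA2A was most like ZUP1 (0.966) and POC5 (0.956). SRSF6 was most like ZDHHC6 (0.962) and ENOSF1 (0.927), SRSF7 like TSR1 (0.951) and MCCC2 (0.950), SRSF2 like CDCA7 (0.949) and SFXN5 (0.933), and SRSF5 like WDR19 (0.949) and SNHG10 (0.936). For SRSF10 they were GCLC (0.935) and SACM1L (0.933), for SRSF1 USP37 (0.907) and CLSPN (0.904), and for SRSF4 BPNT1 (0.832) and CDC23 (0.831). Within the family the 3 highest r were 0.869 between SRSF3 and SRSF7, 0.853 between SRSF2 and SRSF6 and 0.831 between SRSF1 and SRSF2. The 3 lowest were -0.859 between SRSF4 and SRSF6, -0.809 between SRSF2 and SRSF4 and -0.713 between SRSF1 and SRSF4.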

How the data were processed

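The authors deposited transcript tables for each cell type's own assembly: whole-number counts, and TPM (counts per length, scaled to 1000000 per library). STAR, RSEM and hg38 are named in the submitters' processing notes, without versions or roles; RSEM estimates may have been rounded, and strand use is not given in the sources used here. Library preparation used an NEBNext Ultra kit, per the labels. Columns coded "Nei" were read as nucleus by elimination. In the ectoderm table, 1 column matched no sample and was not used. The series text names actinomycin D; no sample label does.

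Isoform counts and gene sums (over all isoforms of an Ensembl gene ID) were tested with edgeR 4.0.16 in R 4.3.3. The steps were filterByExpr with a minimum count of 10, TMM factors, quasi-likelihood F test, and diffSpliceDGE for usage. Each fit was on the whole table with all libraries of the cell type. A call is a Benjamini-Hochberg adjusted p under 0.05; the SE was taken from the log2 change and its F. The scripts were tested on simulated data. Structures and sequences come from GENCODE 29. Processed pseudogenes of SRSF1 and SRSF10 are annotated and may share reads.

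The genes and lists were chosen with earlier results of these data known. All 10 gene sums are counted in every comparison, and not every called one is named between cell types; of isoforms, up to 3 per direction with the largest change, if called, above a mean of 5 CPM in 1 of the groups and without overlap, and each gene's top isoform per table. Those retaining an intron or holding an extra exon, SRSF10-213, and some other called isoforms were added after their values were seen. The called END.9807.8 (SRSF5, endoderm) and MES.6469.3 (TRA2A, mesoderm) are not described. For the called SRSF11-202 (hPSC) and SRSF11-203 (ectoderm) only the direction is given. For the pathway list, up to 3 per direction qualified. Of the genes most like each member in pattern, 1 is not reported here. Alternatives were total counts, no filter, DESeq2, limma on log2(TPM + 1), limma diffSplice, a replicate block, the combined assembly (ectoderm), and leaving out each library. Over all fraction pairs, same-numbered libraries showed no clear pairing: 10 of 63 pairs had deviations correlated over 0.1. Between cytoplasm and nucleus, replicate 1 exceeded this in hPSC (0.187), ectoderm (0.344) and mesoderm (0.143). Replicate 2 did so in ectoderm (0.187) and endoderm (0.220). The lowest there were endoderm replicates 1 (-0.157) and 3 (-0.479). Pairing within this comparison alone was not tested. Replicates differed beyond counting error (chi-square per degree of freedom 4.24 to 158, 45 pairs). The highest values, 158 and 108, were those of endoderm nucleus replicate 1 against replicates 2 and 3.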

Additional observations from a re-analysis of the deposited data

Results flagged for a closer look

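The difference between cytoplasm and nucleus was itself compared between each derived cell type and hPSC, as an interaction term in edgeR on gene sums. It differed for 2 of 10 genes in ectoderm (1 higher, 1 lower; 51.9% of all genes, 27.4% higher and 24.6% lower), 3 in endoderm (0 higher, 3 lower; 38% of all, 19.7% and 18.3%; 2 higher and 0 lower by total counts) and 3 in mesoderm (0 higher, 3 lower; 25.6% of all, 18.7% and 6.88%). These comparisons share the hPSC libraries.

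In ectoderm SRSF3 was less cytoplasmic than in hPSC (-0.82 ± 0.21 SE, adjusted p = 0.00248) and SRSF11 more (1.66 ± 0.44, adjusted p = 0.0034); the 5 nuclear controls were all higher in ectoderm cytoplasm too, and their part in this was not tested. In endoderm the difference was lower for SRSF5 (-1.29 ± 0.35, adjusted p = 0.00726; -0.84 and not called by total counts), SRSF2 (-0.59 ± 0.17, adjusted p = 0.00841; -0.11 and not called by total counts) and SRSF6 (-0.81 ± 0.32, adjusted p = 0.0493; not called by total counts or with a replicate block). In mesoderm it was lower for SRSF7 (-1.29 ± 0.23, adjusted p = 0.000425), SRSF2 (-0.84 ± 0.17, adjusted p = 0.00108) and TRA2A (-1.32 ± 0.40, adjusted p = 0.018).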

How the results depend on the processing

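Values were recomputed for the genes and isoforms that were called or are printed. Of 1713 such values, 1478 kept their direction and side of the threshold, 212 lost the call, 4 gained one and 19 changed sign; of 320 counts, 274 stayed within 1.5 times. A further 56 gene sums, neither called nor printed, changed sign in 66 of 740 values. Of those, 5 were called with the other sign: SRSF3 on ectoderm chromatin on TPM, SRSF4 on endoderm chromatin by total counts and on TPM, and SRSF4 and SRSF10 in mesoderm cytoplasm on TPM. Total counts moved the median of all genes between cytoplasm and nucleus by 0.12, 0.35, 0.72 and -0.12 on the log2 scale in hPSC, ectoderm, endoderm and mesoderm, and TPM moved it by -0.30, 0.13, 0.28 and -0.83. Between chromatin and nucleoplasm the shifts in hPSC, ectoderm and endoderm were 0.16, 0.19 and 0.62 by total counts and 0.47, 0.51 and 0.51 on TPM. The cause of the other changes was not tested.

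By total counts SRSF2 between cytoplasm and nucleus in endoderm was 0.58, SRSF3 on chromatin in endoderm 0.069 (SRSF3-202 as a transcript 0.027) and SRSF1 in endoderm against hPSC 0.059. In ectoderm the counts were then 17 transcripts between cytoplasm and nucleus, and on chromatin 2 gene sums, 3 transcripts and, for usage, 3; endoderm had 8 transcripts on chromatin. On TPM, SRSF7 and SRSF1 on hPSC chromatin were 0.019 and 0.21 (SRSF1-201 also 0.21), SRSF2 in endoderm 0.38, and SRSF3 and SRSF3-202 on endoderm chromatin 0.095. Counts on chromatin were then 10 transcripts in hPSC, 7 gene sums and 15 transcripts in ectoderm and 13 transcripts in endoderm, and in mesoderm 9 gene sums and 32 transcripts between cytoplasm and nucleus. DESeq2 called 11 transcripts on hPSC chromatin and 18 in ectoderm cytoplasm against nucleus. With no filter 2 gene sums were called on ectoderm chromatin, and on the combined assembly 1 transcript.

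limma's diffSplice called over 1.5 times as many isoforms as edgeR in these comparisons: on chromatin against cytoplasm 13, 24, 12 and 23 in hPSC, ectoderm, endoderm and mesoderm, and between cytoplasm and nucleus 11 in hPSC and 17 in mesoderm. It did not call SRSF1-204 or SRSF5-212 in mesoderm, and it gave -0.023 for TRA2A-212 in hPSC.

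With a replicate block the counts were within 1.5 times of those without it: for usage on chromatin 6 against 8 in ectoderm and 6 against 8 in mesoderm, and for transcripts between cytoplasm and nucleus in mesoderm 14 against 17. The block ended 12 calls and turned 0 values. Over all fraction pairs no clear pairing by number was seen, as a library correlated best with its own number in 48 of 126 cases. With so few libraries per group, this cannot exclude a shared origin.

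Leaving out 1 library at a time gave, on chromatin against nucleoplasm, 2 to 5 gene sums and 1 to 5 transcripts in hPSC (1 without chromatin replicate 3 or any nucleoplasm library), 1 to 2 gene sums (2 without chromatin replicate 2) and 2 to 4 transcripts in ectoderm, and 2 to 4 transcripts in endoderm (2 without nucleoplasm replicate 3). The 2 or 3 in ectoderm came without nucleoplasm replicate 2 or 3 or chromatin replicate 1 or 3. Transcripts between cytoplasm and nucleus numbered 5 to 12 in ectoderm (5 without cytoplasm replicate 3) and 8 to 15 in mesoderm (8 without nucleus replicate 1, 11 without cytoplasm replicate 3). Usage calls numbered 2 to 3 between cytoplasm and nucleus in hPSC, and on chromatin 2 to 5 in ectoderm and 5 to 10 in mesoderm. SRSF1 in endoderm against hPSC ranged from -0.14 to 0.037, and SRSF5 in mesoderm against hPSC from -0.15 to 0.17. For uncalled usage values the ranges were -0.43 to 0.48 for TRA2A-212 on hPSC chromatin, -0.24 to 0.10 for SRSF2-203 between cytoplasm and nucleus in ectoderm, and -0.15 to 0.067 for SRSF7-204 on mesoderm chromatin. Depth limits isoforms with few counts: a count of 0 was read as up to 3.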
